A study of Mus musculus with 100 samples.

Results

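The immediate early transcription factors followed here are 10 genes of a count table of 17310 genes, namely *Fos*, *Fosb*, *Jun*, *Junb*, *Egr1*, *Egr3*, *Atf3*, *Ier2*, *Nr4a1* and *Cebpb*. They were taken by name, and all 10 were found in the table. Whole knee joints of MRL/MpJ, C57BL/6 (C57BL/6J in the methods) and STR/ort mice were profiled by RNA-seq in 100 libraries, to ask how strains that the labels call not susceptible, moderately susceptible and highly susceptible to post-traumatic osteoarthritis differ before and after a joint injury. Right knees of 10-week-old mice were injured by a single compressive load of 10 to 12 N on the tibia, with no other agent named in the labels. The 12 libraries of 0-day (4 per strain) are from uninjured mice and were collected before injury. Injured joints and the uninjured contralateral joints of injured mice followed at 3 later times (1-day, 1-week, 2-weeks), with 5 libraries per strain and joint except for the contralateral joints of MRL/MpJ and STR/ort at 1-week, which had 4 each. By the study's methods the contralateral joints thus come from animals that had been anesthetized, loaded and given an analgesic. The labels give no sex, and the joints were cut out with small traces of soft tissue and cut into pieces in RNA later before RNA was purified. By the labels, experimental batch 1 holds the 70 libraries up to 1-week and batch 2 the 30 of 2-weeks, so 2-weeks and the earlier time points cannot be told apart from the batches.

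Immediate early genes are transcribed within minutes of a stimulus such as a growth factor, a cytokine, mechanical strain or tissue handling, from factors that are already present in the cell, and their mRNAs are short-lived. Their products are themselves transcription factors: FOS and JUN proteins pair into the AP-1 dimer, the EGR proteins are zinc fingers, ATF3 and C/EBPβ are further basic leucine zipper proteins and NR4A1 is an orphan nuclear receptor. In joint tissue AP-1 is known for driving matrix metalloproteinases and inflammatory mediators.

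The proximal promoters of the AP-1 genes are shown because 6 of the 7 members whose RefSeq promoter (GRCm38.p6) was used here hold the same short motif, TGACG, the half-site of the cAMP response element, on either strand between 250 bases before and 50 bases after the transcript start. It was found for *Fos*, *Fosb*, *Junb*, *Atf3*, *Nr4a1* and *Cebpb*, and in 20.8% of the 32851 promoters of the table. *Jun* held instead TGACATCA, which is in 3.62% of promoters and does not contain TGACG. None of the 7 held the full element TGACGTCA (1.79% of promoters), the AP-1 site TGAGTCA (5.20%) or the CArG box bound by serum response factor (1.63%) within this window. *Egr1* was left out of these member counts, and no promoter was at hand for *Egr3* and *Ier2*, so the counts say nothing of these members. The lines below give the 200 bases before the start in the direction of transcription, with matches on the printed strand in capitals.
Fos, chr12:85473690-85473889, plus strand: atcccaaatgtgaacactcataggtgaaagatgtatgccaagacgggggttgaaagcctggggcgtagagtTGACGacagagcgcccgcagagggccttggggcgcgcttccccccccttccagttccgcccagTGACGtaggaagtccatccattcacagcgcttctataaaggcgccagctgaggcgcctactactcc
Fosb, chr7:19310046-19310245, minus strand: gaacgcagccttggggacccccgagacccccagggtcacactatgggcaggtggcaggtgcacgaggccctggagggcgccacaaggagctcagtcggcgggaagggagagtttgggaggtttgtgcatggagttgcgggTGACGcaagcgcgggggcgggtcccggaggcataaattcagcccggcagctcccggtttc
Jun, chr4:95052223-95052422, minus strand: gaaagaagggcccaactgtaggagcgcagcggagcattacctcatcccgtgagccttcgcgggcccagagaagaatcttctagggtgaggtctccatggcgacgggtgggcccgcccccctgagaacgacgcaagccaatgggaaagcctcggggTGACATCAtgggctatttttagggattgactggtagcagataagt
Junb, chr8:84978749-84978948, minus strand: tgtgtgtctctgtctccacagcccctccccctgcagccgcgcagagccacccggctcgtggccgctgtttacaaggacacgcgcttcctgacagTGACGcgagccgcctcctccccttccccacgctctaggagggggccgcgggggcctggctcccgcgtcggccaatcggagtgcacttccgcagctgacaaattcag
Counted from the transcript start, the matches begin at -129 and -66 in *Fos*, -60 in *Fosb*, -45 in *Jun* and -106 in *Junb*. A match is a description of these letters and was not tested for binding.

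Total counts ranged from 6182016 to 20986027 per library, with a median of 10582592. The members had from 3 counts (*Fosb*, in 1 library) to 6772 counts (*Egr1*) per library. *Fosb* and *Egr3* were the least counted, with 5 to 19 and 8 to 19 counts in the 0-day libraries of MRL/MpJ. In STR/ort, the injured and the contralateral library numbered 5 at 1-day stood apart from the 4 other libraries of their groups in several members. Several, but not all, results of *Fos*, *Fosb*, *Egr1* and *Atf3* that rest on them are given with and without them. Levels are CPM, counts scaled to a common library size, and are compared between groups for 1 gene and not between genes. Called genes are those with an adjusted p under 0.05 and a change of over 1.5-fold.

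Before injury, all 10 members were higher in STR/ort than in the other strains. In a test over all genes, 10 of 10 were called higher than in MRL/MpJ, where 8.34% of all genes were, and 10 of 10 higher than in C57BL/6, where 7.82% of all genes were. The median log2 fold change of the members was 2.88 and 3.06, beside 0.007 and -0.055 over all genes. For all 10, the lowest STR/ort library lay above the highest library of MRL/MpJ and of C57BL/6, an arrangement seen for 14.9% and 15.6% of all genes. The STR/ort libraries enter both comparisons. In whole joints, more cells of a type and more RNA per cell cannot be told apart.

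*Fos*, the prototype AP-1 subunit, had 517, 435, 155 and 155 CPM in the 4 STR/ort libraries at 0-day. In MRL/MpJ it had 15.3, 13.3, 14.3 and 14.8 CPM, and in C57BL/6 17.0, 20.7, 31.9 and 18.7 CPM. The groups were far apart, but the STR/ort libraries themselves fell into a higher and a lower pair. The log2 fold change of STR/ort was 4.46 (SE 0.36, adjusted p = 2.8e-08) over MRL/MpJ and 3.80 (SE 0.33, adjusted p = 1.1e-07) over C57BL/6. With STR/ort libraries 1 and 2 left out, an alternative chosen after the data were seen, it was 3.42 and 2.77, and 10 of 10 members were still called in both comparisons.

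*Fosb*, whose product takes the place of FOS in AP-1, had 113, 104, 45.002 and 46.6 CPM in STR/ort, with the same high and low pairs as *Fos*. It had 1.90, 1.05, 0.861 and 1.38 CPM in MRL/MpJ, and 3.26, 3.62, 5.30 and 3.34 CPM in C57BL/6. *Fosb* had a log2 fold change of 5.83 (SE 0.38, adjusted p = 1.6e-09) over MRL/MpJ and 4.28 (SE 0.30, adjusted p = 5.2e-09) over C57BL/6. These were the largest differences among the members, but without STR/ort libraries 1 and 2 *Egr1* was above *Fosb* over C57BL/6 (3.64 and 3.51).

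*Jun*, the main partner of FOS proteins, differed less than *Fos*, with a small spread between libraries. Its STR/ort libraries had 270, 254, 235 and 233 CPM, against 60.3 to 71.2 CPM in MRL/MpJ and 52.2 to 71.4 CPM in C57BL/6. This gave log2 fold changes of 1.91 (SE 0.10, adjusted p = 4.6e-11) and 1.97 (SE 0.10, adjusted p = 2.7e-11). *Junb*, a JUN paralog that can restrain JUN, had 147, 148, 77.0 and 89.2 CPM in STR/ort. It ranged from 15.0 to 19.5 CPM in MRL/MpJ and from 13.8 to 20.9 CPM in C57BL/6. Its log2 fold changes were 2.68 (SE 0.19) and 2.73 (SE 0.19), with adjusted p of 6.1e-09 and 4.4e-09.

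*Egr1*, a zinc finger factor induced by growth factors and strain, had 657, 673, 450.1 and 374 CPM in STR/ort at 0-day. The range was 26.7 to 28.9 CPM in MRL/MpJ and 26.5 to 42.5 CPM in C57BL/6. The log2 fold change was 4.30 (SE 0.19, adjusted p = 7.9e-12) and 4.03 (SE 0.18, adjusted p = 7.4e-12). *Egr3*, a family member that EGR1 itself can induce, had 20.8, 30.2, 22.0 and 14.7 CPM in STR/ort and at most 2.21 CPM in MRL/MpJ and 2.65 CPM in C57BL/6. Its log2 fold changes were 3.75 (SE 0.25) and 3.31 (SE 0.22), with adjusted p of 1.6e-09 and 2.0e-09. The high and low pairs of *Fos* were not repeated by *Egr3*, whose library 3 was close to library 1.

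*Atf3*, a stress-induced leucine zipper factor, had 85.3, 63.3, 38.6 and 36.8 CPM in STR/ort. It had 5.93 to 9.99 CPM in MRL/MpJ and 3.47 to 7.40 CPM in C57BL/6. Its log2 fold change was 2.94 (SE 0.27, adjusted p = 1.2e-07) and 3.16 (SE 0.26, adjusted p = 4.4e-08). *Cebpb*, a leucine zipper factor of the acute phase and inflammatory response, ran the other way among the STR/ort libraries. Its 53.9 and 61.4 CPM fell in the libraries with the most *Fos*, and its 82.4 and 99.8 CPM in those with the least. It had 9.14 to 12.0 CPM in MRL/MpJ and 18.3 to 26.1 CPM in C57BL/6, so the log2 fold change was 2.81 (SE 0.18, adjusted p = 1.1e-09) and 1.80 (SE 0.16, adjusted p = 9.8e-08).

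*Ier2*, an immediate early gene that encodes a small nuclear protein, had 98.2, 97.0, 65.8 and 62.1 CPM in STR/ort. In MRL/MpJ it had 24.9 to 26.7 CPM and in C57BL/6 15.2 to 22.6 CPM, with log2 fold changes of 1.65 (SE 0.15, adjusted p = 8.0e-08) and 2.13 (SE 0.15, adjusted p = 4.3e-09). *Nr4a1*, the orphan nuclear receptor also called NUR77, had 383, 366, 287 and 264 CPM in STR/ort. In MRL/MpJ it had 51.2 to 67.5 CPM and in C57BL/6 32.9 to 46.5 CPM. The log2 fold changes were 2.49 (SE 0.13, adjusted p = 8.6e-11) and 2.96 (SE 0.13, adjusted p = 7.5e-12).

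Between C57BL/6 and MRL/MpJ at 0-day, 2 of 10 members were called higher in C57BL/6, where 9.64% of all genes were. *Cebpb* differed by a log2 fold change of 1.01 (SE 0.19, adjusted p = 0.00042). *Fosb* differed by 1.55 (SE 0.55, adjusted p = 0.035), a call that was lost in 1 fit of all libraries of batch 1 (adjusted p = 0.24) and without any of MRL/MpJ libraries 2, 3 and 4 or C57BL/6 libraries 2 and 3 (adjusted p from 0.052 to 0.11). *Fos* did not pass at 0.66 (SE 0.38, adjusted p = 0.20) unless STR/ort libraries 1 and 2 were left out of the shared fit (adjusted p = 0.0030).

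**Figure D1:**
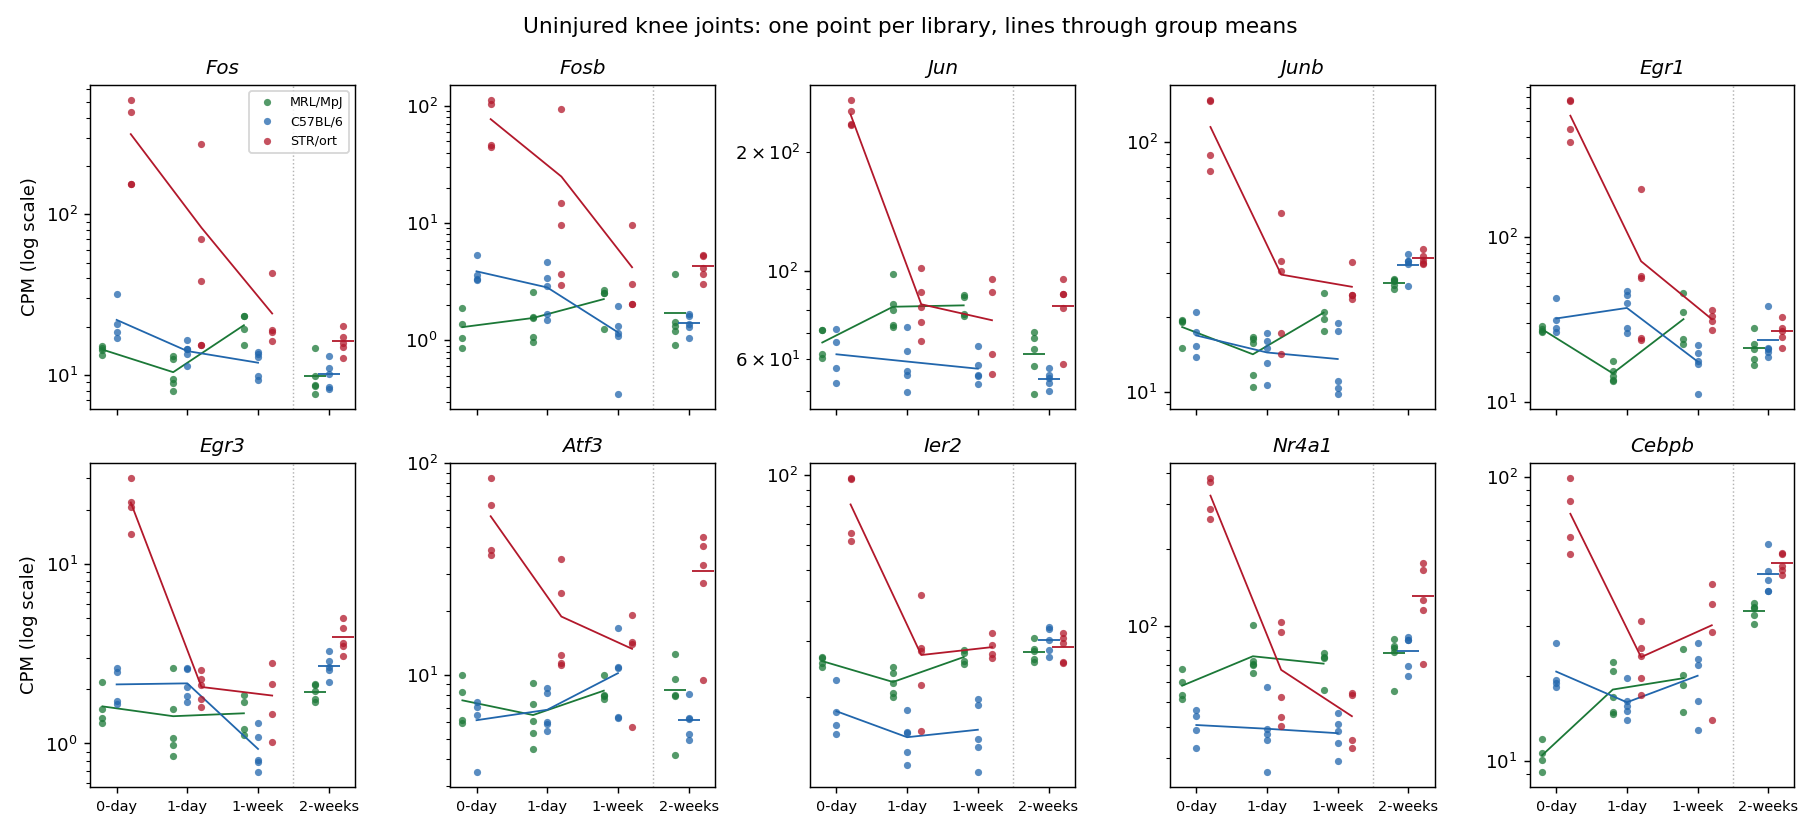
Levels of the 10 immediate early factors (CPM, log scale) in every uninjured library, by strain and time point, with 1 panel per gene, 1 point per library, lines through the group means of batch 1 and, right of the dotted line, bars for the means of batch 2. The 4 STR/ort points of 0-day stand above all MRL/MpJ and C57BL/6 points of 0-day in all 10 panels, and in the *Fos* panel they are at 155 to 517 CPM.

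Genes next to the members in the same response were followed as lists. Of 11 other immediate early factors, 10 were called as higher in STR/ort against MRL/MpJ and 8 higher than in C57BL/6. They include *Egr2*, another EGR factor, with a log2 fold change over C57BL/6 of 4.23 (SE 0.20, adjusted p = 1.7e-11), and the *Nr4a1* relatives *Nr4a3* at 3.40 (SE 0.32) and *Nr4a2* at 1.94 (SE 0.17). The Kruppel-like factor *Klf4* differed by 0.89 (SE 0.08). Of 13 genes that feed back on the response, 10 were called higher against each strain, with *Errfi1*, an inhibitor of EGF receptor signaling, at 3.04 (SE 0.12) over C57BL/6, the MAP kinase phosphatase *Dusp1* at 2.36 (SE 0.15), the mRNA decay factor *Zfp36* at 1.92 (SE 0.18) and the EGR corepressor *Nab2* at 0.92 (SE 0.10).

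Of 10 other leucine zipper factors, 5 were called as higher in STR/ort against MRL/MpJ and 3 higher than in C57BL/6. These 3 were *Maff* at a log2 fold change of 1.21 (SE 0.15), *Jund* at 0.68 (SE 0.12) and *Fosl2* at 0.62 (SE 0.08), and *Fosl2* fell under 1.5-fold without STR/ort libraries 1 and 2 (0.50), STR/ort library 1 alone (0.56) or C57BL/6 library 3 (0.58). *Jund* did so without C57BL/6 library 1 (0.56), and was not called with 2 RUVg factors (adjusted p = 0.17), which are factors of unwanted variation estimated from 25 housekeeping genes. Of 10 genes known as targets of these factors in joint tissue, 6 and 3 were called higher. Against C57BL/6 these were the prostaglandin synthase *Ptgs2* at 2.13 (SE 0.22), the growth factor *Hbegf* at 1.31 (SE 0.16) and the cytokine *Il6* at 1.96 (SE 0.60), which had 0.209 to 2.62 CPM in STR/ort and was not called without libraries 1 and 2 (adjusted p = 0.50), library 1 alone (0.099) or C57BL/6 library 2 (0.050). With 2 RUVg factors *Il6* (0.94, adjusted p = 0.76) and *Hbegf* (0.76, adjusted p = 0.21) were not called.

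Heat shock genes, which report protein stress and handling of tissue, were higher in STR/ort at 0-day too. Of 8 such genes, 5 were called as higher in STR/ort against MRL/MpJ and 6 higher than in C57BL/6, with *Hspa1a* at 3.94 (SE 0.29), *Hspa1b* at 3.62 (SE 0.23), *Dnajb1* at 1.30 (SE 0.09) and *Hspb1* at 1.26 (SE 0.14) over C57BL/6. *Hspb1* was at 0.44 (adjusted p = 0.31) with 2 RUVg factors. *Hspa1a* and *Hspa1b* are near-identical copies, and how their reads were divided is uncertain. The summed heat shock level was 4137 to 4684 CPM in STR/ort, against 2998 to 3336 CPM in MRL/MpJ and 2643 to 2945 CPM in C57BL/6. Within STR/ort, libraries 1 and 2 had the most of the members (2345 and 2232 CPM in sum, against 1458 and 1375 CPM). Their heat shock sums were somewhat lower (4179 and 4137 CPM, against 4684 and 4418 CPM). These sums run over all 8 genes and do not show *Hspa1a* or *Hspa1b* by library. The part of tissue handling in the difference of the members was not tested.

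The tissue make-up of the 0-day joints differed between strains as well. Markers of synovial fibroblasts summed to 2709 to 6344 CPM in STR/ort, 1122 to 1481 CPM in MRL/MpJ and 1694 to 2849 CPM in C57BL/6, with 5 of 7 called higher than in MRL/MpJ, and 2 higher and 1 lower than in C57BL/6. Fast muscle markers summed to 93911 to 109965 CPM in STR/ort and 88210 to 107538 CPM in MRL/MpJ, with 0 of 10 called, but to 40331 to 65666 CPM in C57BL/6, with 10 of 10 called higher in STR/ort. Erythroid markers summed to 1798 to 1898 CPM in STR/ort and at least 3506 CPM in the other strains, with 5 of 5 called lower than in MRL/MpJ and 3 lower than in C57BL/6. Of the 5 endothelial markers 0 were called against either strain. Of 8 cartilage markers 1 was called higher than in MRL/MpJ and 5 lower than in C57BL/6. Of 6 macrophage markers 0 were called against MRL/MpJ and 2 lower than in C57BL/6, and of 8 neutrophil markers 1 lower and 0. Of 7 bone markers 2 were higher and 1 lower than in MRL/MpJ, and 1 higher and 2 lower than in C57BL/6, and of 5 fat markers 1 was higher than in MRL/MpJ and 1 higher and 1 lower than in C57BL/6. Of the skin list 1 gene was measured and called against neither strain. The part of these lists in the difference of the members was not tested.

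After injury the contralateral joints of STR/ort had far less of the members than the 0-day joints. At 1-day 10 of 10 members were called lower than at 0-day, where 6.94% of all genes were, and at 1-week 10 of 10, where 7.46% of all genes were. The median log2 fold change of the members was -1.77 at 1-day and -2.48 at 1-week, beside 0.08 over all genes at both times. Every contralateral library was below every 0-day library for 8 of 10 members at 1-day and 10 of 10 at 1-week, as it was for 12.5% and 12.5% of all genes. The 0-day libraries are the same in both comparisons, and all these libraries belong to batch 1.

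Among the AP-1 genes, *Fos* had 19.0, 18.5, 16.2 and 43.0 CPM in the 4 contralateral STR/ort libraries of 1-week, all far below the 155 CPM of the lowest 0-day library. The log2 fold change over 0-day was -3.68 (SE 0.53, adjusted p = 1.1e-06). At 1-day the contralateral libraries had 15.4, 15.4, 38.4, 70.1 and 274 CPM, and the last of these overlapped with 0-day. The log2 fold change at 1-day was -1.90 (SE 0.44, adjusted p = 0.0011), and it was -3.15 without the 1-day STR/ort libraries numbered 5, an alternative chosen after the data were seen. It was -0.88 and not called (adjusted p = 0.19) without the 0-day libraries 1 and 2.

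*Fosb* had the same pattern, with 2.94, 3.69, 9.72, 14.9 and 93.6 CPM in the contralateral STR/ort libraries of 1-day and 2.06 to 9.68 CPM at 1-week. It differed from 0-day by -1.59 (SE 0.48, adjusted p = 0.011) at 1-day and by -4.19 (SE 0.64, adjusted p = 2.7e-06) at 1-week. Without the libraries numbered 5 the value of 1-day was -3.29, and without the 0-day libraries 1 and 2 it was -0.84 and not called (adjusted p = 0.30). *Jun* fell from at least 233 CPM at 0-day to 66.5 to 102 CPM at 1-day and 55.0 to 95.5 CPM at 1-week, with log2 fold changes of -1.56 (SE 0.12) and -1.69 (SE 0.13). *Junb* fell to 14.3 to 52.2 CPM and 23.6 to 33.2 CPM, with log2 fold changes of -1.93 (SE 0.23) and -2.10 (SE 0.25).

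*Egr1* had 23.9, 24.4, 56.1, 57.7 and 193 CPM in the contralateral STR/ort joints of 1-day and 27.1 to 36.1 CPM at 1-week. All these libraries were below the 374 CPM of the lowest 0-day library. Its log2 fold changes over 0-day were -2.89 (SE 0.33, adjusted p = 5.5e-08) and -4.05 (SE 0.38, adjusted p = 6.3e-10). Without the libraries numbered 5 the value of 1-day was -3.70. *Egr3* had 1.595 to 2.55 CPM at 1-day and 1.01 to 2.79 CPM at 1-week, which is within the range of the other strains at 0-day or close to it. It changed by -3.36 (SE 0.21, adjusted p = 1.3e-14) and -3.49 (SE 0.24, adjusted p = 1.2e-13). The contralateral library numbered 5 had the highest *Egr3* of its group, 2.55 CPM, but close to the next, 2.28 CPM.

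*Atf3*, *Ier2*, *Nr4a1* and *Cebpb* fell at both times as well. *Atf3* had 11.2 to 35.0 CPM at 1-day and 5.67 to 19.1 CPM at 1-week, with log2 fold changes over 0-day of -1.54 (SE 0.28), or -1.89 without the libraries numbered 5, and -2.08 (SE 0.32). *Ier2* had 15.6 to 41.8 CPM and 26.5 to 31.8 CPM, with -1.55 (SE 0.16) and -1.46 (SE 0.17). *Nr4a1* had 40.2 to 104 CPM and 32.8 to 54.3 CPM, with -2.25 (SE 0.21) and -2.86 (SE 0.23). *Cebpb* had 17.2 to 31.0 CPM and 13.9 to 42.2 CPM, with -1.64 (SE 0.20) and -1.27 (SE 0.22), and its highest contralateral library remained below its lowest 0-day library.

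In the other strains, 1 call was made in the same contrast. In MRL/MpJ, edgeR called 0 of 10 members at 1-day (0.0867% of all genes) and 0 of 10 at 1-week (0% of all genes), with 3 and 2 members at an unadjusted p under 0.05, and DESeq2 also called 0. In C57BL/6, edgeR and DESeq2 called 0 of 10 at 1-day (0.0635% of all genes), with 0 at an unadjusted p under 0.05. At 1-week 1 of 10 was called lower in C57BL/6, where 4.64% of all genes were. This was *Egr3*, which had 0.693 to 1.30 CPM against 1.67 to 2.65 CPM at 0-day and a log2 fold change of -1.18 (SE 0.31, adjusted p = 0.0075). *Fosb* at -1.69 and *Egr1* at -0.88 were called as well when the 1-day STR/ort libraries numbered 5 were left out of the shared fit. Libraries did not overlap with 0-day for 5 of 10 members in MRL/MpJ at 1-day, *Jun* and *Cebpb* higher (3.24% of all genes) and *Fos*, *Egr1* and *Ier2* lower (2.15%). At 1-week *Fos*, *Jun* and *Cebpb* were higher without overlap in MRL/MpJ (1.93%), and *Fos*, *Fosb*, *Egr1* and *Egr3* lower in C57BL/6 (7.59%), where at 1-day *Fos* was lower (1.07%).

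The strain difference in this change was tested directly. The change over 0-day was lower in STR/ort than in MRL/MpJ for 7 of 10 members at 1-day (5.18% of all genes) and for 10 of 10 at 1-week (6.64% of all genes). Against C57BL/6 it was lower for 8 of 10 at 1-day (5.59% of all genes) and 9 of 10 at 1-week (9.21% of all genes). These tests share the STR/ort libraries and the 0-day libraries. *Nr4a1* is an example of a clear difference, at -2.63 (SE 0.30) and -2.17 (SE 0.30) on the log2 scale at 1-day and -3.15 (SE 0.32) and -2.73 (SE 0.32) at 1-week.

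The members that did not pass in edgeR at 1-day were *Fos*, at -1.44 (SE 0.74, adjusted p = 0.20) and -1.25 (SE 0.68, adjusted p = 0.21), *Fosb*, at -1.79 (SE 1.23, adjusted p = 0.36) and -1.08 (SE 0.90, adjusted p = 0.45), and *Atf3* against MRL/MpJ alone, at -1.34 (SE 0.48, adjusted p = 0.053). This *Atf3* difference was called by DESeq2 (adjusted p = 0.043). In edgeR it was called with another count filter (0.0496), in 1 fit of batch 1 (0.035) and without any 1 of several libraries. At 1-week the exception in edgeR was *Fosb* against C57BL/6, at -2.50 (SE 1.21, adjusted p = 0.11). DESeq2 called it at -2.47 (adjusted p = 0.032). In edgeR it was called with 1 and 2 RUVg factors (-4.73 and -4.76, adjusted p = 0.0051 and 0.0039). It was also called without contralateral STR/ort library 4 of 1-week (-3.32, adjusted p = 0.045). Without the 1-day libraries numbered 5, all of these passed, with *Fos* at -2.69 and -2.50 at 1-day and *Fosb* at -3.49 and -2.77. With RUVg factors *Cebpb* against C57BL/6 was not called at 1-day (adjusted p = 0.13 with 1 factor and 0.19 with 2) or 1-week (0.072 and 0.080), nor *Atf3* at 1-day with 1 factor (0.056). Without the 0-day libraries 1 and 2, the counts were 7 and 7 at 1-day and 10 and 8 at 1-week. Between C57BL/6 and MRL/MpJ the change differed for 0 of 10 members at 1-day (0.0173% of all genes) and 0 of 10 at 1-week (1.58% of all genes) by edgeR and by DESeq2, with 3 and 4 at an unadjusted p under 0.05.

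Other genes of the response moved in the same direction in STR/ort. Of the 11 other immediate early factors, 6 were called lower than at 0-day in the contralateral joints of 1-day and 6 at 1-week, and of the 13 feedback genes 7 and 7. Of 8 heat shock genes 6 and 4 were called lower, and their sum at 1-week (3553 to 4647 CPM) overlapped with 0-day. Fast muscle markers were lower too, with 10 of 10 called at both times and summed levels of 38025 to 65909 CPM and 34670 to 66394 CPM. Macrophage markers were higher, with 3 and 4 of 6 called, as were 4 of 7 synovial fibroblast, 3 of 8 cartilage and 4 of 7 bone markers at 1-week. The synovial fibroblast sum was also higher at 1-day, at 6709 to 9477 CPM against 2709 to 6344 CPM at 0-day. The part of tissue make-up in the change of the members was not tested.

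At 1-day, 1 library in each STR/ort group stood apart in *Fos*, *Fosb* and *Egr1*. The 5 injured libraries had 26.3, 29.1, 39.1, 36.0 and 265 CPM of *Fos*, and the contralateral library of the same number had 274 CPM. For *Fosb* the library numbered 5 had 63.8 CPM in the injured group, where the others had 3.33 to 7.04 CPM. For *Egr1* it had 166 CPM, against 19.99 to 40.1 CPM in the other injured libraries. It was also the highest injured library for *Jun*, *Junb*, *Atf3*, *Ier2* and *Nr4a1*, but for *Cebpb* it had 34.0 CPM among 29.8 to 40.8 CPM. Its fast muscle markers summed to 50942 CPM, against 20039 to 29677 CPM in the other injured libraries, while the contralateral library 5 had the lowest sum of its group, 38025 CPM. Across all genes the injured and contralateral libraries numbered 5 did not deviate together (r = -0.131 after removal of group means). Pairs that the labels name in MRL/MpJ at 2-weeks had values down to -0.161, so this value does not show whether they share an animal. The labels of 1-day do not name the animal.

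**Figure D2:**
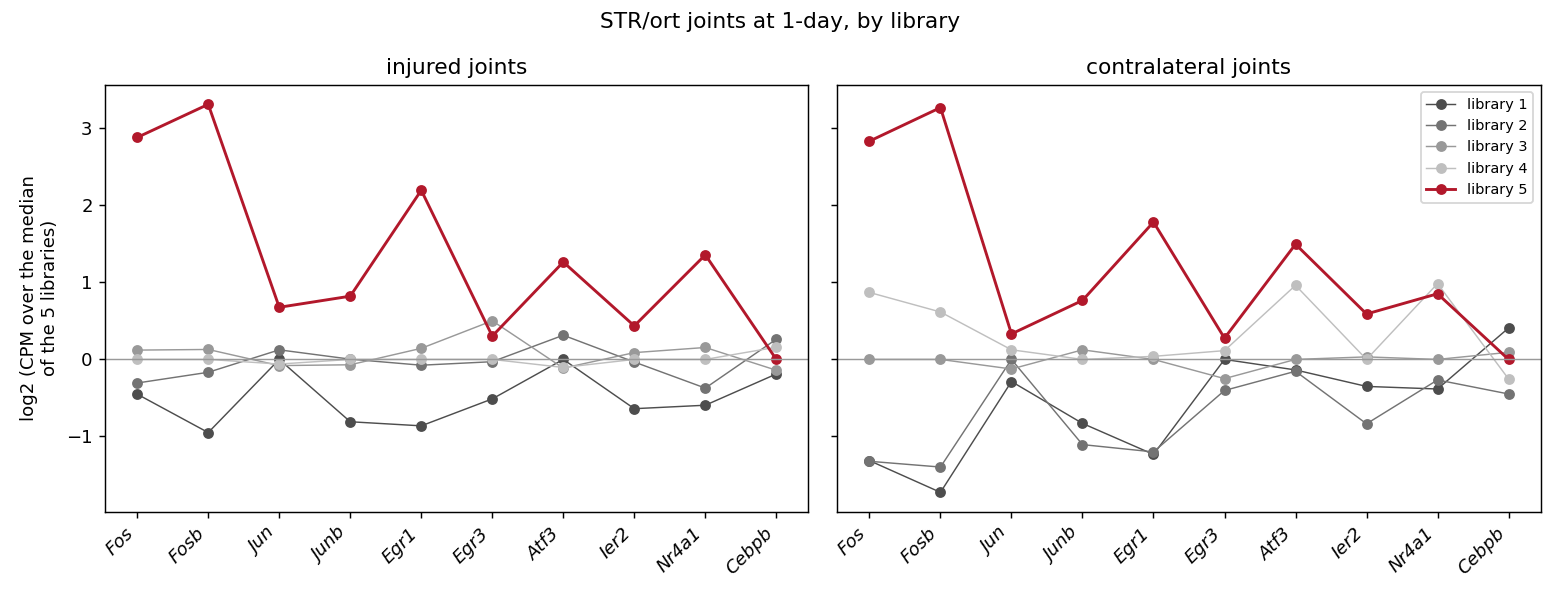
Members in the STR/ort libraries of 1-day as log2 of CPM over the median of the 5 libraries of the group, with injured joints left, contralateral joints right, 1 line per library and library 5 in red. For *Fos*, library 5 is at 265 and 274 CPM, above the 4 other libraries of each group, and for *Egr3* and *Cebpb* it lies among or near the others.

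Differences between strains were also tested among the contralateral joints of injured mice, where fewer members were called than at 0-day. At 1-day 5 of 10 members were called as higher in STR/ort against MRL/MpJ, where 13.1% of all genes were, and 6 of 10 higher than in C57BL/6, where 5.73% of all genes were. *Fos* differed by a log2 fold change of 3.03 (SE 0.64) and 2.55 (SE 0.61), and by 1.77 and 1.30 without the libraries numbered 5. *Fosb* differed by 4.05 (SE 0.88) and 3.19 (SE 0.79), and by 2.36 and 1.496 without them. *Junb* differed by 1.10 (SE 0.27) and 1.04 (SE 0.27), and *Atf3*, called against both, by 1.49 (SE 0.29) over C57BL/6, or 1.14 without the libraries numbered 5. Over MRL/MpJ *Fos* was not called with 2 RUVg factors (adjusted p = 0.060), nor *Fosb* with 1 or 2 (0.092 and 0.13). Beside these, fast muscle markers summed to 38025 to 65909 CPM in STR/ort and 73701 to 96782 CPM in MRL/MpJ, with 8 of 10 called lower, and erythroid markers to 1523 to 2357 CPM against 3827 to 4739 CPM, with 4 of 5 lower and 1 higher. Against C57BL/6, 0 of 10 and 2 of 5 were called lower. Of 7 synovial fibroblast markers 4 and 3 were called higher. Their part in the differences of the members was not tested.

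*Egr1* was called against MRL/MpJ, at 2.29 (SE 0.47), but not against C57BL/6, at 0.95 (SE 0.43, adjusted p = 0.097). Without the libraries numbered 5 these were 1.48 (called) and 0.14 (adjusted p = 0.68). *Egr1* was called against C57BL/6 in 1 fit of batch 1 (adjusted p = 0.024) and without STR/ort injured library 5 (0.029) or contralateral library 1 (0.039) or 2 (0.041). *Ier2* at 0.86 (SE 0.18) and *Nr4a1* at 0.79 (SE 0.27) were called against C57BL/6 only, beside 0.33 (SE 0.17) and -0.13 (SE 0.26) against MRL/MpJ. When the contralateral library 5 alone was left out, 3 of 10 members were called against C57BL/6, without *Fos* (adjusted p = 0.059), *Fosb* (0.11) and *Nr4a1* (0.10). *Nr4a1* was also not called without C57BL/6 library 3 (0.058) or 4 (0.081) or STR/ort library 4 (0.11). C57BL/6 was higher than MRL/MpJ in 1 of 10 members, *Egr1* at 1.34 (SE 0.47), where 9% of all genes were, and lower in 1 of 10, *Nr4a1* at -0.93 (SE 0.27), where 5.81% of all genes were. That *Egr1* call (adjusted p = 0.027) was lost without any 1 of MRL/MpJ libraries 1, 3 and 5 and C57BL/6 libraries 2 and 5 (adjusted p from 0.052 to 0.062), and with 1 or 2 RUVg factors both *Egr1* (0.079 and 0.18) and *Nr4a1* (0.24 and 0.13) were not called.

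At 1-week, more members were called against C57BL/6 than against MRL/MpJ. Against MRL/MpJ, 1 of 10 members was called higher in STR/ort (13.7% of all genes), *Cebpb* at 0.64 (SE 0.26, adjusted p = 0.047), and 1 of 10 lower (10.7% of all genes), *Nr4a1* at -0.67 (SE 0.25, adjusted p = 0.029). Both calls were lost without MRL/MpJ contralateral library 2 or 3, and *Nr4a1* turned to 0.24 (adjusted p = 0.83) with 2 RUVg factors, which also lost *Cebpb* (0.47). With 1 factor both were lost (0.35 and 0.69), and *Atf3* at 1.44 (adjusted p = 0.036) and *Ier2* at -0.75 (adjusted p = 0.0012) were called. Against C57BL/6, 6 of 10 were called higher (13.1% of all genes), namely *Fos* at 1.02 (SE 0.29), *Fosb* at 1.79 (SE 0.49), *Junb* at 0.96 (SE 0.20), *Egr1* at 0.86 (SE 0.20), *Egr3* at 1.00 (SE 0.31) and *Ier2* at 0.88 (SE 0.14). *Fos* and *Fosb* were not called without STR/ort contralateral library 4 (adjusted p = 0.093 and 0.11), *Egr3* was not called without library 3 (0.11), and with 1 RUVg factor 0 members were called. In 1 fit of batch 1, *Fos*, *Fosb* and *Egr1* were not called (adjusted p = 0.13, 0.11 and 0.063). C57BL/6 was lower than MRL/MpJ in 4 of 10 members (4% of all genes), *Junb* at -0.59 (SE 0.21), *Egr1* at -0.83 (SE 0.20), *Ier2* at -0.75 (SE 0.14) and *Nr4a1* at -0.90 (SE 0.24), and without MRL/MpJ contralateral library 1 it was lower in 2. *Junb* (adjusted p = 0.045) was not called without any 1 of 11 libraries, and *Junb* and *Egr1* were called neither in 1 fit of batch 1 (adjusted p = 0.12 and 0.13) nor with 2 RUVg factors (0.39 for both), which also lost *Nr4a1* (0.64). Beside these, 8 of 8 cartilage markers and 6 of 7 bone markers were called higher against either strain in STR/ort, and fast muscle markers lower in 10 of 10 against MRL/MpJ and 5 of 10 against C57BL/6. Macrophage markers summed to 2726 to 3344 CPM in STR/ort, 2281 to 2531 CPM in MRL/MpJ and 2028 to 2462 CPM in C57BL/6, with 2 and 1 of 6 called higher, and heat shock genes to 3553 to 4647, 2755 to 3073 and 2768 to 3592 CPM, with 3 and 1 of 8 called higher. Their part in the members' differences was not tested.

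At 2-weeks, which is the other batch, *Atf3* had 44.6, 27.2, 40.7, 9.49 and 33.0 CPM in the contralateral STR/ort joints. It had 4.19 to 12.6 CPM in MRL/MpJ and 4.93 to 8.14 CPM in C57BL/6, so that 1 STR/ort library overlapped with MRL/MpJ. The log2 fold change was 1.86 (SE 0.29, adjusted p = 6.8e-06) and 2.31 (SE 0.30, adjusted p = 8.9e-07). In all, 5 of 10 members were called higher than in MRL/MpJ (7.97% of all genes) and 5 of 10 higher than in C57BL/6 (4.92% of all genes). *Fos* was called at 0.71 (SE 0.19) and 0.66 (SE 0.19), *Fosb* at 1.32 (SE 0.28) and 1.61 (SE 0.30) and *Nr4a1* at 0.74 (SE 0.19) and 0.71 (SE 0.19). *Egr3* was called against MRL/MpJ at 1.01 (SE 0.21) and *Jun* against C57BL/6 at 0.61 (SE 0.12). Without STR/ort contralateral library 3, 3 of 10 were called against C57BL/6, and *Jun* (0.55) and *Nr4a1* (0.57) fell under 1.5-fold. *Jun* did so too without C57BL/6 library 5 or STR/ort library 1 or 2 (0.58 each) and with 1 or 2 RUVg factors (0.55 and 0.41), and *Fos* without STR/ort library 5 (0.57). With 2 RUVg factors *Nr4a1* was called against neither strain (adjusted p = 0.15 and 0.13). Between C57BL/6 and MRL/MpJ edgeR and DESeq2 called 0 of 10 members (9.83% of all genes), with 3 at an unadjusted p under 0.05. Fast muscle markers were called in 0 of 10 in either comparison of STR/ort at 2-weeks, and erythroid markers in 5 of 5 lower.

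Few members were called as changed by the injury, and in the main fits these were all at 1-day. At that time in MRL/MpJ every injured library was above every contralateral one for *Fos* and *Junb* (3.87% of all genes). For *Nr4a1* every one was below (2.09%). In C57BL/6 every injured library was above for *Fos*, *Jun*, *Junb* and *Atf3* (6.92%), and in STR/ort for 0 members (5.05%). *Junb* had 26.8, 33.2, 29.2, 36.3 and 43.3 CPM in the injured joints of MRL/MpJ and 11.7, 15.7, 10.5, 16.4 and 16.6 CPM in the contralateral joints. The 2 groups did not overlap, and the log2 fold change was 1.26 (SE 0.27, adjusted p = 0.0041). In C57BL/6 it had 36.1, 23.8, 25.7, 44.9 and 29.9 CPM against 10.7 to 17.2 CPM, again without overlap, with a log2 fold change of 1.16 (SE 0.27, adjusted p = 0.0025). In STR/ort it had 25.3, 44.4, 42.2, 44.3 and 78.3 CPM against 17.3, 14.3, 33.4, 30.7 and 52.2 CPM, which overlap, and 0.64 (SE 0.25, adjusted p = 0.11) did not pass.

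In MRL/MpJ, 2 of 10 members were called higher in injured joints at 1-day (1.53% of all genes), *Junb* and *Cebpb*, and 1 of 10 lower (0.497% of all genes), *Nr4a1*. *Cebpb* had 20.97 to 36.1 CPM against 14.7 to 22.3 CPM, a log2 fold change of 0.63 (SE 0.16, adjusted p = 0.019) that was not called without any of injured libraries 4 and 5 and contralateral libraries 1, 3 and 5 (0.50 to 0.59), nor in 1 fit of batch 1 (adjusted p = 0.075). *Nr4a1* had 27.4 to 41.8 CPM against 64.9 to 100.5 CPM and fell by 1.09 on the log2 scale (SE 0.27, adjusted p = 0.015). Without contralateral library 2, which had the 100.5 CPM, it was at -0.98 and not called (adjusted p = 0.055).

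In C57BL/6, 1 of 10 members was called higher at 1-day (4.26% of all genes), which was *Junb*. *Jun*, at 0.55 (SE 0.14, adjusted p = 0.0046), and *Cebpb*, at 0.55 (SE 0.16, adjusted p = 0.018), passed the test but stayed under 1.5-fold. *Fos* had 17.7 to 35.6 CPM in the injured and 11.3 to 16.6 CPM in the contralateral joints, without overlap, but its 0.80 (SE 0.63, adjusted p = 0.43) did not pass in the fit shared with STR/ort. Without the STR/ort libraries numbered 5, 4 of 10 were called in C57BL/6, with *Fos* at 0.80 (adjusted p = 0.036), *Atf3* at 0.73 (adjusted p = 0.012) and *Nr4a1* at -0.62 (adjusted p = 0.040) beside *Junb*.

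In STR/ort, edgeR and DESeq2 called 0 of 10 members at 1-day (4.31% of all genes), with 3 at an unadjusted p under 0.05. *Cebpb*, at 0.55 (SE 0.16, adjusted p = 0.020), stayed under 1.5-fold. Without the libraries numbered 5, *Junb* at 0.69 (adjusted p = 0.035) and *Nr4a1* at -0.84 (adjusted p = 0.011) were called. Without injured library 5 alone, *Fosb* (-2.14, adjusted p = 0.015), *Egr1* (-1.11, 0.033) and *Nr4a1* (-0.98, 0.0028) were called lower, with the high contralateral library 5 kept. Without contralateral library 5 alone, *Junb* was called (0.95, adjusted p = 0.011). In the fits with the replicate number as a block, 4 of 10 members were called in C57BL/6 and 2 of 10 in STR/ort at 1-day, where it is not known whether joints of the same number share an animal. The shares of all genes given here belong to the fits without a block.

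At 1-week 0 of 10 members were called by edgeR and by DESeq2 in MRL/MpJ (3.13% of all genes), C57BL/6 (5.82%) and STR/ort (9.21%), with 2, 4 and 3 members at an unadjusted p under 0.05. *Fosb* had the largest values, at 1.04 (SE 0.45, adjusted p = 0.25) in MRL/MpJ, without overlap (5.76% of all genes), and 1.12 (SE 0.49, adjusted p = 0.16) in C57BL/6. With the replicate number as a block, *Fosb* was called in MRL/MpJ (1.17, adjusted p = 0.0063). *Fosb* (1.12, adjusted p = 0.0088) and *Fos* (0.66, adjusted p = 4.9e-05) were then called in C57BL/6. Whether joints of the same number share an animal there is not known. *Jun* in STR/ort, at 0.38 (SE 0.13, adjusted p = 0.041), was under 1.5-fold. At 2-weeks the count was 0 of 10 by both tools in MRL/MpJ (1.16% of all genes), C57BL/6 (2.95%) and STR/ort (4.66%), with 1, 0 and 2 members at an unadjusted p under 0.05. *Junb* in STR/ort had 42.5 to 59.9 CPM in injured and 32.5 to 37.5 CPM in contralateral joints at 2-weeks, without overlap (7.81% of all genes). Its log2 fold change of 0.52 (SE 0.09, adjusted p = 6.8e-05) was under 1.5-fold. *Fosb* in C57BL/6 was also higher without overlap at 2-weeks (6.41% of all genes).

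**Figure D3:**
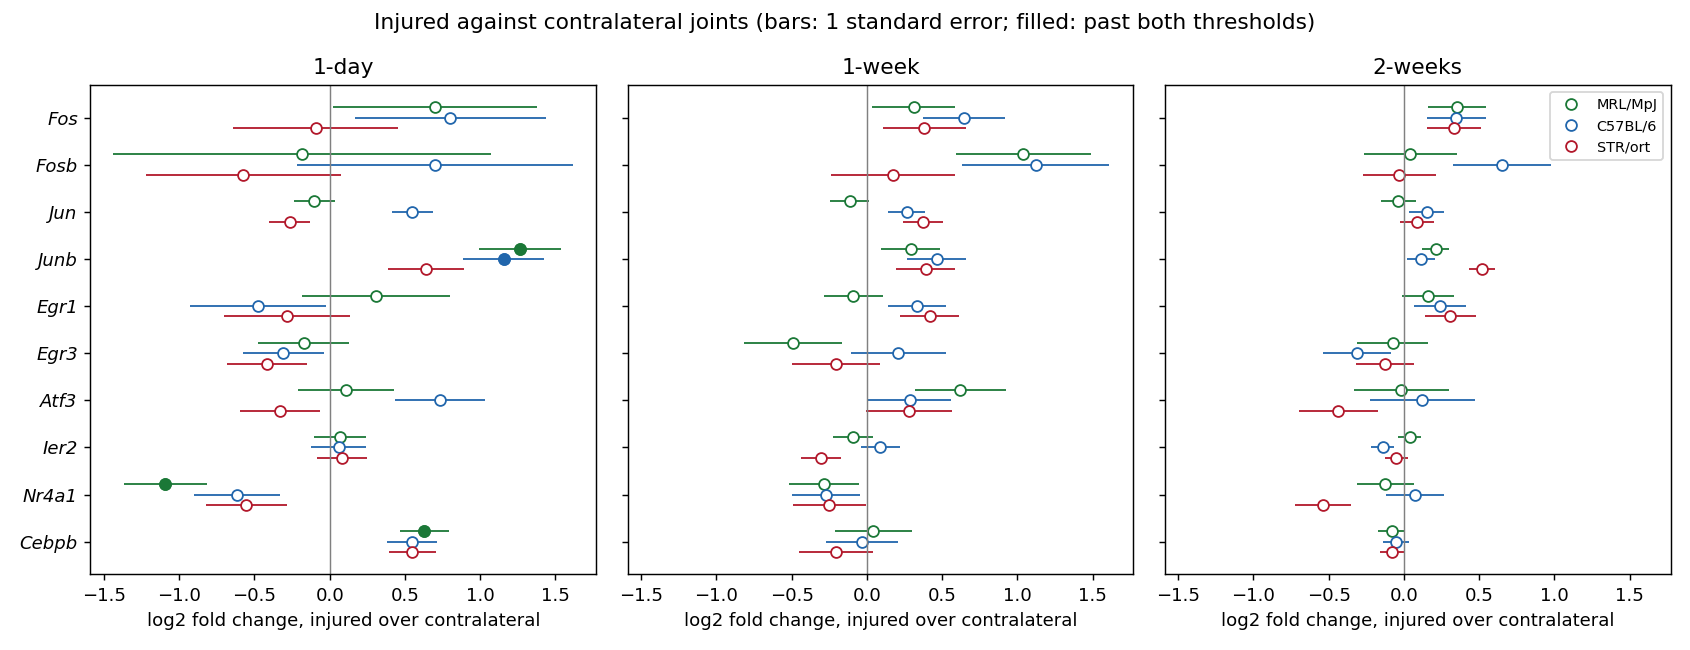
Log2 fold change of injured over contralateral joints for the 10 members, by strain and time point, with bars for 1 SE and filled points for called members. *Junb* is filled at 1-day in MRL/MpJ (1.26) and C57BL/6 (1.16), with *Cebpb* (0.63) and *Nr4a1* (-1.09) filled in MRL/MpJ, and no point is filled at 1-week or 2-weeks.

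The difference of the injury change between strains was tested for each pair of strains. At 1-day *Jun* alone was called, lower in STR/ort than in C57BL/6, which is 1 of 10 members where 2.48% of all genes were called lower. *Jun* was at 73.9 to 107 CPM in the injured joints of C57BL/6 and at 49.6 to 72.3 CPM in the contralateral joints, but at 58.9 to 99.5 CPM and 66.5 to 102 CPM in STR/ort. The difference was -0.82 on the log2 scale (SE 0.19, adjusted p = 0.011). *Atf3* was called as well without the libraries numbered 5 (-1.05, adjusted p = 0.028), with the replicate block (-1.01, adjusted p = 0.014) and, with *Fos* (-2.15, adjusted p = 0.050), without injured library 5 alone (-1.40, adjusted p = 0.015). For *Junb*, the difference between STR/ort and MRL/MpJ was -0.62 (SE 0.37, adjusted p = 0.86) and that between STR/ort and C57BL/6 -0.51 (SE 0.37, adjusted p = 0.51), so the change of *Junb* was not shown to differ between strains.

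Otherwise 0 of 10 members were called by edgeR and by DESeq2. This holds at 1-day for STR/ort against MRL/MpJ (0.162% of all genes) and C57BL/6 against MRL/MpJ (0.318%), with 0 and 1 members at an unadjusted p under 0.05. It holds at 1-week for STR/ort against MRL/MpJ (0.884%), STR/ort against C57BL/6 (0.491%) and C57BL/6 against MRL/MpJ (0%), with 1 member each. It holds at 2-weeks for the same pairs (0.451%, 0.0462% and 0%), with 1, 2 and 0 members.

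Among the list genes named by rule, several rose with injury at 1-day in all 3 strains. *Socs3*, a feedback inhibitor of cytokine signaling, rose in MRL/MpJ by a log2 fold change of 1.67 (SE 0.23), in C57BL/6 by 1.25 (SE 0.22) and in STR/ort by 1.41 (SE 0.20). *Ier3*, an immediate early gene of the stress response, rose by 0.68 (SE 0.19), 0.96 (SE 0.20) and 0.72 (SE 0.18). In MRL/MpJ (adjusted p = 0.038) *Ier3* was not called without any 1 of 8 of the 10 libraries, namely injured 2, 4 and 5 and contralateral 1 to 5 (adjusted p from 0.056 to 0.12). *Gadd45g*, another of the feedback genes, was named for C57BL/6 alone, where it rose by 0.72 (SE 0.19, adjusted p = 0.0078). It was not called there without injured library 4 (adjusted p = 0.056). Among the known targets, the protease inhibitor *Timp1* rose by 2.22 (SE 0.22), 2.33 (SE 0.20) and 2.35 (SE 0.20), the plasminogen activator *Plau* by 0.94 (SE 0.12), 0.96 (SE 0.11) and 1.21 (SE 0.11), and *Il6* by 2.36 (SE 0.48), 2.46 (SE 0.44) and 3.34 (SE 0.32).

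Among the relatives of the members, the AP-1 gene *Fosl1* was at most 0.759 CPM in any 1-day library. In STR/ort it was higher in injured joints by 2.25 (SE 0.53, adjusted p = 0.0054), and with 2 RUVg factors it was not called (adjusted p = 0.057). In C57BL/6 it had 0 counts in all 5 contralateral libraries and at most 0.449 CPM in the injured ones, so no fold is given. *Maff* rose by 0.71 (SE 0.16) in MRL/MpJ, and *Nr4a3* fell there by 1.34 on the log2 scale (SE 0.32), the same direction as *Nr4a1*, and was not called without contralateral library 2 (adjusted p = 0.073). The heat shock gene *Hspb1* rose by 1.39 (SE 0.30), 0.95 (SE 0.31) and 1.55 (SE 0.30) in the 3 strains. In C57BL/6 *Hspb1* (adjusted p = 0.030) was not called without any 1 of injured libraries 1 and 4 and contralateral libraries 3, 4 and 5 (adjusted p from 0.065 to 0.14). Tissue markers moved with injury at 1-day as well. Of 7 synovial fibroblast markers 4 were called higher in MRL/MpJ and 5 in C57BL/6, and 3 higher and 1 lower in STR/ort. Of 10 fast muscle markers 0, 1 and 8 were called lower in MRL/MpJ, C57BL/6 and STR/ort, with sums of 50290 to 91444 CPM against 73701 to 96782 CPM in MRL/MpJ and 20039 to 50942 CPM against 38025 to 65909 CPM in STR/ort. Neutrophil markers summed to 9969 to 12744 CPM in injured and 14385 to 17787 CPM in contralateral joints of C57BL/6, without overlap, with 0 of 8 called. Their part in the members' changes was not tested.

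Over all 21 groups, which span both batches, the 0-day STR/ort joints had the highest mean of all 10 members. *Fos* was at 315 ± 188 CPM (SD, n = 4) there, and next at 82.6 ± 109 CPM (SD, n = 5) in the contralateral STR/ort joints of 1-day, which overlap with it through library 5. *Fosb*, at 77.1 ± 36.4 CPM and next 24.97 ± 38.7 CPM, had the same order and the same overlap. *Egr1*, at 539 ± 150 CPM and next 71.1 ± 70.2 CPM in those joints, did not overlap. For *Fos*, *Fosb* and *Egr1* this second place depends on library 5, which had 193 CPM of *Egr1* against 23.9 to 57.7 CPM in the others of its group.

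The second highest group was also without overlap for *Jun* (97.7 ± 15.1 CPM, injured STR/ort at 1-week, after 248 ± 17.4 CPM), *Junb* (49.2 ± 7.08 CPM, injured STR/ort at 2-weeks, after 115 ± 37.5 CPM) and *Egr3* (3.92 ± 0.791 CPM, contralateral STR/ort at 2-weeks, after 21.9 ± 6.37 CPM). The same held for *Nr4a1* (131 ± 42.7 CPM, contralateral STR/ort at 2-weeks, after 325 ± 58.5 CPM) and *Ier2* (30.2 ± 2.82 CPM, contralateral C57BL/6 at 2-weeks, after 80.8 ± 19.5 CPM). The groups overlapped for *Atf3* (31.0 ± 13.8 CPM after 56.0 ± 23.0 CPM) and *Cebpb* (49.9 ± 3.94 CPM after 74.3 ± 20.8 CPM), both with the contralateral STR/ort joints of 2-weeks as the second. *Fos* was lowest in the contralateral MRL/MpJ joints of 2-weeks, at 9.91 ± 2.86 CPM (SD, n = 5). The groups of 2-weeks are of the other batch. Where they come second or lowest in this order, time point and batch cannot be told apart.

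Most members varied more between libraries of 1 group than genes of like level. The SD of log2 CPM pooled over the 21 groups was 0.79 for *Fosb*, 0.63 for *Fos*, 0.49 for *Atf3* and 0.47 for *Egr1*, beside medians of 0.31, 0.16, 0.19 and 0.14 over genes of like level. *Nr4a1* had 0.39, *Junb* 0.34 and *Cebpb* 0.30, beside 0.12, 0.14 and 0.14. *Ier2* at 0.23 and *Jun* at 0.21 were closer to their medians of 0.15 and 0.11, and *Egr3* at 0.39 was next to its median of 0.36. Without the STR/ort libraries of 0-day and 1-day, *Fos* was at 0.36, *Fosb* at 0.57 and *Egr1* at 0.29 over 86 libraries.

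After removal of group means, some members went up and down together between libraries. Over 45 pairs of members and 100 libraries the correlations ran from -0.062 to 0.817 (*Fos* and *Egr1*), with a median of 0.408 and 15 pairs over 0.5. Over these 100 libraries *Cebpb* followed the others least, with a median of 0.140. In batch 2 its median of 0.197 was above those of *Jun* (0.165), *Nr4a1* (0.041), *Atf3* (-0.0897) and *Egr3* (-0.113). Without STR/ort at 0-day and 1-day its pairs ran from 0.063 (*Atf3*) to 0.460 (*Jun*), so its last place does not hold in every set of libraries. The median over all pairs was 0.425 in the 70 libraries of batch 1, 0.197 in the 30 of batch 2 and 0.239 in the 86 libraries without STR/ort at 0-day and 1-day. Over the 21 group means it was 0.704, and 0.348 when the 0-day STR/ort group was left out. The points share library, depth and scaling, and these values are descriptions.

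**Figure D4:**
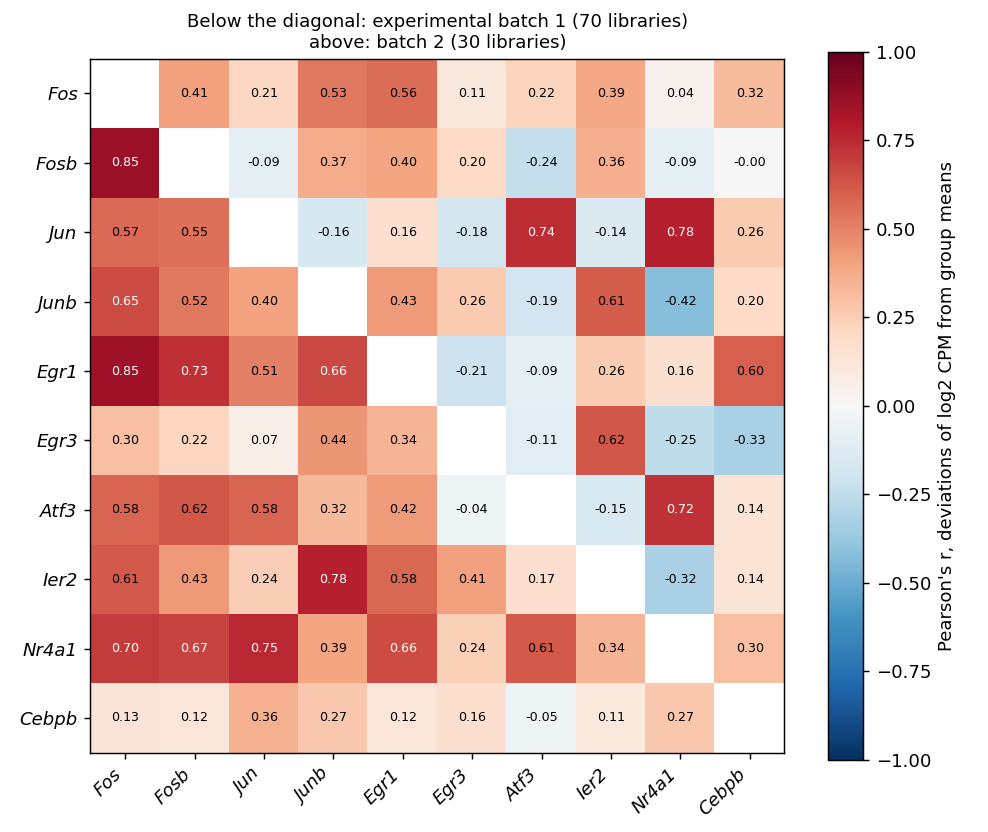
Pearson correlation of log2 CPM between members after removal of group means, 1 cell per pair of genes, with the 70 libraries of batch 1 below the diagonal and the 30 of batch 2 above it. The median of the 45 pairs is 0.425 below and 0.197 above, and *Fos* and *Fosb* are at 0.854 and 0.410.

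The genes whose log2 CPM went most like the mean of the members, after removal of group means over 100 libraries, were *Dusp1* (r = 0.785), *Cyr61* (0.707), *Zfp36* (0.6995), *Egr2* (0.603) and *Apold1* (0.555). *Dusp1* was at 0.8294 in the 70 libraries of batch 1 and at 0.328 in the 30 libraries of batch 2. In batch 2 *Cyr61* was at 0.337, *Zfp36* at 0.143, *Egr2* at 0.111 and *Apold1* at 0.433. Like the members, *Dusp1* was highest at 0-day in STR/ort, at 94.6 ± 23.4 CPM (SD, n = 4), beside 25.4 ± 1.73 CPM in MRL/MpJ and 18.0 ± 2.76 CPM in C57BL/6.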

How the data were processed

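RNA was purified from whole joints, and poly(A) libraries were sequenced. Per the labels, the authors aligned reads to mm10 with TopHat2 (version 2.0.11), counted them on RefSeq genes with featureCounts and deposited raw counts. The 17313 entries hold 3 repeats, which were dropped, and 24 names turned into dates by a spreadsheet. The filter of the methods (2 counts in 5 libraries) removed 0 genes. Of 190 pairs of libraries within groups, 0 were identical.

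Counts were scaled by TMM factors and tested with the quasi-likelihood test of edgeR (version 4.0.16, R 4.3.3), with Benjamini-Hochberg adjustment over all 17310 genes, and all adjusted p values come from it unless another tool is named. SEs were derived from fold changes and F statistics. The 0-day libraries, each later time point, and the 40 uninjured libraries of batch 1 each formed 1 fit with 1 mean per group. For CPM, TMM factors were taken over all 100 libraries, with a prior count of 2 on the log2 scale. The thresholds, 0.05 and 1.5-fold, are those of the methods, which do not state the edgeR test or the number of RUVSeq factors. The p-values measure the spread between libraries, since the labels do not state separate animals at each time.

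The members and lists were chosen with earlier results of these data known. All members are named, as are, by adjusted p, the leading called genes of each list for STR/ort over C57BL/6 at 0-day (up to 4) and in injury at 1-day (up to 3), and the 5 genes most like the mean of the members. Marker lists of fast muscle, erythroid cells, neutrophils, macrophages, cartilage, bone, synovial fibroblasts, endothelium, fat and skin were followed by counts and sums. The labels name the animal for the 15 pairs of joints at 2-weeks. At 1-week all 4 STR/ort pairs correlated above 0.1 (0.102 to 0.231), and pairing by number was assumed there. The named MRL/MpJ pairs of 2-weeks had only -0.161 to 0.0755, so this value does not tell paired from unpaired joints. At 1-day, and for MRL/MpJ and C57BL/6 at 1-week, not every pair was above 0.1. Whether joints of the same number share an animal is not known at 1-day and 1-week. Alternatives were DESeq2 (version 1.42.0), RLE factors, RUVg with 1 and 2 factors, other filters, 1 fit of batch 1, a replicate block and each library left out. The 2 alternatives without named STR/ort libraries were chosen after seeing the data. The fits were tested on simulated data.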

Additional observations from a re-analysis of the deposited data

Results flagged for a closer look

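Of 210 sets of libraries (10 members in 21 groups), 23 (11%) had a highest or lowest library that stood far from the rest, 19 high and 4 low. Chance alone would mark about 1 in 20 independent sets, but the members share libraries, so these sets are not independent and the 2 shares are not compared. At 1-day the STR/ort libraries numbered 5 account for 9 of these. The injured one was high in *Fos* (265 CPM), *Fosb* (63.8 CPM), *Jun* (99.5 CPM), *Egr1* (166 CPM), *Atf3* (28.3 CPM) and *Nr4a1* (96.8 CPM), and the contralateral one in *Fos* (274 CPM), *Fosb* (93.6 CPM) and *Egr1* (193 CPM). In the contralateral STR/ort joints of 1-week, library 4 was high in *Fos* (43.0 CPM) and *Fosb* (9.68 CPM) and library 2 in *Junb* (33.2 CPM).

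The other high libraries were injured MRL/MpJ library 4 of 1-day in *Fos* (18.8 CPM) and *Egr3* (2.15 CPM), contralateral MRL/MpJ library 2 of 1-day in *Nr4a1* (100.5 CPM), injured C57BL/6 library 5 of 1-day in *Egr1* (29.7 CPM), contralateral C57BL/6 library 4 of 2-weeks in *Egr1* (38.4 CPM), contralateral MRL/MpJ library 1 of 2-weeks in *Fosb* (3.68 CPM) and C57BL/6 library 3 of 0-day in *Cebpb* (26.1 CPM). The low ones were contralateral MRL/MpJ libraries of 1-week, number 1 in *Fosb* (1.24 CPM) and number 4 in *Nr4a1* (55.9 CPM), injured MRL/MpJ library 3 of 2-weeks in *Fosb* (0.601 CPM), and MRL/MpJ library 1 of 0-day in *Junb* (15.0 CPM).

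The change in contralateral joints since 0-day differed between strains by a test of the difference itself. At 1-day, STR/ort minus MRL/MpJ was -1.85 for *Jun*, -1.59 for *Junb*, -2.01 for *Egr1*, -3.21 for *Egr3*, -1.33 for *Ier2*, -2.63 for *Nr4a1* and -2.40 for *Cebpb*, all as log2 differences. At 1-day, STR/ort minus C57BL/6 was -1.48 for *Jun*, -1.70 for *Junb*, -3.08 for *Egr1*, -3.34 for *Egr3*, -1.66 for *Atf3*, -1.27 for *Ier2*, -2.17 for *Nr4a1* and -1.26 for *Cebpb*.

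At 1-week, STR/ort minus MRL/MpJ was -4.19 for *Fos*, -4.93 for *Fosb*, -2.01 for *Jun*, -2.30 for *Junb*, -4.26 for *Egr1*, -3.34 for *Egr3*, -2.27 for *Atf3*, -1.51 for *Ier2*, -3.15 for *Nr4a1* and -2.16 for *Cebpb*. At 1-week, STR/ort minus C57BL/6 was -2.79 for *Fos*, -1.55 for *Jun*, -1.78 for *Junb*, -3.18 for *Egr1*, -2.30 for *Egr3*, -2.76 for *Atf3*, -1.26 for *Ier2*, -2.73 for *Nr4a1* and -1.21 for *Cebpb*. For the change with injury at 1-day, *Jun* differed between STR/ort and C57BL/6 by -0.82.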

How the results depend on the processing

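RLE factors, DESeq2, filterByExpr and no filter moved the count of called members by over 1.5 times in 0 of 42 comparisons. The counts of 10 of 10 in STR/ort at 0-day held under all 20 alternatives run for each. Left out in turn, single libraries gave 1 to 2 for C57BL/6 over MRL/MpJ at 0-day (1 without MRL/MpJ 2, 3 or 4 or C57BL/6 2). For injury they gave 1 to 3 in C57BL/6 at 1-day (higher without C57BL/6 injured 2, 3 or 5, contralateral 1 or 2, or STR/ort injured or contralateral 5) and 0 to 3 in STR/ort (higher without injured 1, 3 or 5 or contralateral 1 or 5). They gave 0 to 1 in C57BL/6 (contralateral 5) and 0 to 1 in STR/ort (injured or contralateral 4) at 1-week, and 0 to 2 in STR/ort at 2-weeks (injured 3, contralateral 4). Among contralateral joints they gave 3 to 8 (STR/ort over C57BL/6, lowest without STR/ort 5) and 1 to 3 (C57BL/6 over MRL/MpJ, lowest without MRL/MpJ 1, 3 or 5 or C57BL/6 2 or 5) at 1-day, 0 to 2 (STR/ort over MRL/MpJ, lower without any of 15 libraries, 0 without MRL/MpJ 2 or 3) and 2 to 5 (C57BL/6 over MRL/MpJ, lowest without MRL/MpJ 1) at 1-week, and 3 to 6 (STR/ort over C57BL/6, lowest without STR/ort 3) at 2-weeks. For the strain difference in the injury change at 1-day they gave 1 to 3 (STR/ort and C57BL/6) and 0 to 1 (C57BL/6 and MRL/MpJ), both highest without injured STR/ort library 5, and for C57BL/6 at 1-week over 0-day 1 to 3, highest without contralateral STR/ort library 5 of 1-day.

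With 1 RUVg factor the counts were 4 (C57BL/6 over MRL/MpJ at 0-day, where *Fosb* was lost and *Atf3* at -0.75, *Ier2* at -0.70 and *Nr4a1* at -0.61 were gained as lower), 2 (injury in C57BL/6 at 1-day), 1 (C57BL/6 over MRL/MpJ contralateral at 1-day, *Ier2* at -0.62 in place of *Egr1* and *Nr4a1*) and 0 (STR/ort over C57BL/6 contralateral at 1-week). With 2 RUVg factors they were 1 at 0-day (C57BL/6 over MRL/MpJ), 3 and 1 for injury in C57BL/6 at 1-day and STR/ort at 1-week, 3 and 0 for STR/ort and C57BL/6 over MRL/MpJ contralateral at 1-day, 0, 2 and 1 at 1-week (STR/ort over MRL/MpJ, STR/ort over C57BL/6, C57BL/6 over MRL/MpJ), 3 at 2-weeks (STR/ort over C57BL/6) and 1 for the injury change of C57BL/6 and MRL/MpJ at 1-day. *Nr4a1* of STR/ort over MRL/MpJ at 1-week turned from -0.67 to 0.24. In 1 fit of batch 1 the counts were 1 (C57BL/6 over MRL/MpJ at 0-day) and 2 (the same at 1-week). Over all genes, the called genes of contralateral STR/ort over 0-day at 1-week split into 1091 higher and 1292 lower, but 703 and 273 with 1 RUVg factor and 648 and 294 with 2. At 1-day they split into 535 and 1201, but 52 and 64 with 1 factor, and STR/ort over C57BL/6 at 0-day into 1354 and 1037, but 298 and 388 with 2. The cause was not tested.

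The replicate block gave 4 and 2 for injury in C57BL/6 and STR/ort at 1-day, 1 and 2 in MRL/MpJ and C57BL/6 at 1-week, and 2 for the injury change of STR/ort and C57BL/6 at 1-day. Whether joints of the same number share an animal is not known in those groups. At 2-weeks, where the labels pair the joints, and in STR/ort at 1-week, where pairing was only assumed, the block changed 0 calls. Without the 1-day STR/ort libraries numbered 5 the counts were 4 and 2 for injury in C57BL/6 and STR/ort at 1-day, 2 for the injury change of STR/ort and C57BL/6, and 3 for C57BL/6 at 1-week over 0-day. The likeness of *Dusp1* was 0.328 in batch 2 against 0.785. Without TMM factors 3 of 210 group means of the members moved by over 1 SD. Counts of 3 to 24 per library limit *Fosb* in the contralateral joints of C57BL/6 at 1-week.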

Other observations

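*Errfi1*, the inhibitor of EGF receptor signaling among the feedback genes, was singled out after its values were seen, because STR/ort exceeded MRL/MpJ and C57BL/6, past both thresholds, at all 4 times of the uninjured joints. At 0-day it had 377 ± 26.1 CPM (SD, n = 4) in STR/ort, 44.4 ± 6.44 CPM in C57BL/6 and 35.2 ± 6.03 CPM in MRL/MpJ. In contralateral joints the log2 fold change over C57BL/6 was 1.19 (SE 0.12, adjusted p = 4.64e-09) at 1-day, 2.17 (SE 0.20, adjusted p = 5.67e-10) at 1-week and 0.76 (SE 0.12, adjusted p = 2.00e-05) at 2-weeks, and over MRL/MpJ it was 1.43 (SE 0.12), 1.71 (SE 0.21) and 0.59 (SE 0.12), all by edgeR. It fell in STR/ort from 0-day to 1-day by 1.78 on the log2 scale (SE 0.15). At 1-day *Fos*, *Fosb*, *Junb* and *Atf3* were called against both strains as well, and at 2-weeks *Fos*, *Fosb*, *Atf3* and *Nr4a1*, but at 1-week edgeR called none of the 10 against both, where DESeq2 called *Cebpb* over MRL/MpJ at 0.64 (adjusted p = 0.041) and over C57BL/6 at 0.60 (adjusted p = 0.043).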
